A study of Mus musculus and Rattus norvegicus with 53 samples.

Results

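Cells sorted as Schwann cells (SCs) by a tdTomato reporter from the bridge, 4 days after transection of the mouse sciatic nerve, were compared with cells sorted in the same way from intact nerves. Summed markers of macrophages and of fibroblasts exceeded those of SCs in the bridge libraries, as given below, so these are called sorted cells of the bridge. The fibroblast sums did so in the intact libraries too. The marker lists differ in length, so the sums do not rank cell types. The comparison took the libraries of single nerves whose labels name the day 4 bridge or an intact nerve, which are 3 bridge libraries and 5 intact libraries, 8 of the 35 single-nerve libraries and of the 53 samples of the whole series. All 24016 genes counted in each mouse library were considered. Day 4 is the earliest time at which bridge SCs were sampled in this time course. The question was how the transcriptome of these cells had changed by then.

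Every library came from 1 nerve of 1 mouse of 6 to 8 weeks, of either sex. The mice carried a Cre recombinase driven by a promoter active in SCs, together with a Rosa26 tdTomato reporter, so that SCs and their descendants were red. Cells were sorted on tdTomato after the nerve was dissociated, and recombination had occurred in most but not all SCs. The cells sorted therefore include those in which this promoter had at any time been active. Bridge cells were taken from the tissue that forms between the cut nerve ends, of the animals numbered 18, 19 and 20, and distal stump cells of day 4 came from the same 3 animals. The intact nerves had not been cut. In the study's methods they are contralateral nerves of operated mice, and by the labels they came from 5 other animals, numbered 6, 7, 9, 10 and 11. Libraries are named below as the labels number them, bridge 0, 1 and 2 and intact 0, 1, 3, 4 and 5, and values are given in this order.

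SCs wrap the axons of peripheral nerves, and the myelinating ones hold large amounts of a few myelin proteins and of the cholesterol that myelin needs. After a cut they stop making myelin, return to the cell cycle and act as repair cells. In the distal stump they clear myelin and line up along the old basal lamina. At the cut itself the ends are joined by a bridge of macrophages, fibroblasts, blood vessels and a provisional matrix, and SCs move into it in cords that guide the regrowing axons.

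Between 10167926 and 12560812 reads per bridge library and between 9240883 and 18429026 per intact library were counted on genes. Counts on genes did not differ between the groups beyond their spread (exact two-sided permutation test, p = 0.304, for which a comparison of 3 with 5 libraries cannot go below 0.0179). Genes with a count numbered 13590, 12748 and 12597 in the bridge libraries. In the intact libraries they numbered 10572, 10042, 14155, 15060 and 14045, so that intact 0 and 1 held fewer than any of the other 6 libraries. The study kept fewer intact single nerves after its own filter than the 5 used here, and the labels do not tell which was left out. In intact 0 and 1 the 100 most counted genes took 51.04% and 52.76% of the counts, against 20.31% to 22.02% in intact 3, 4 and 5 and 28.68% to 29.31% in the bridge libraries. A distal library of day 2 was of the same kind, with 54.65%.

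The counts of bridge 1 and of the distal library of the same animal were almost the same. Their chi-square per degree of freedom was 3.902 and their rank correlation 0.9956, whereas the next lowest chi-square among the 595 pairs of single-nerve libraries was 46.15. The 3 pairs of bridge libraries lay between 172.1 and 258.6 and the 10 pairs of intact libraries between 143.2 and 943.1. Bridge 1 and this distal library also shared a trace of spike-in counts, 95 and 126, where the other bridge libraries had 2 and 5 and the other distal libraries of day 4 had 0. Such a trace was not confined to them, with 71 in intact 0 and 182 in the day 2 distal library named above. The labels do not tell from which region this material came, so counts are given with and without bridge 1.

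**Figure D1:**
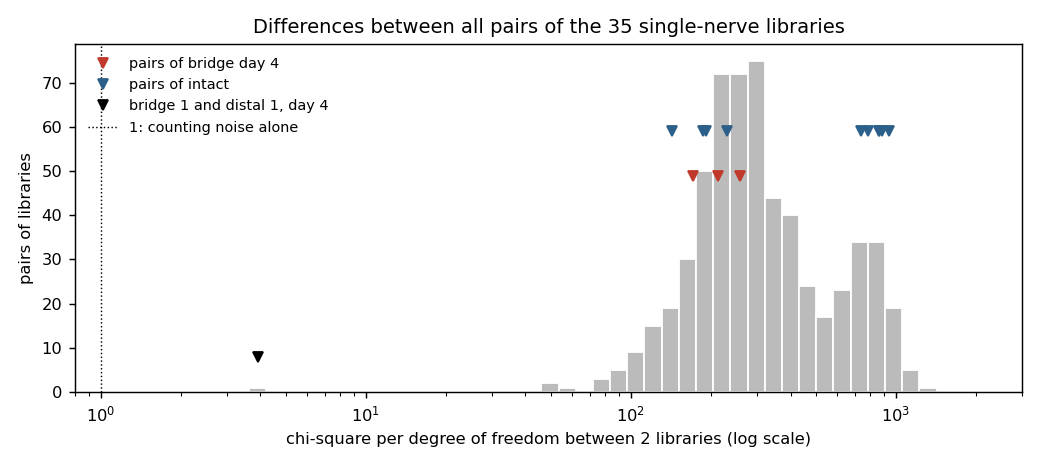
Histogram of the chi-square per degree of freedom of all 595 pairs of the 35 single-nerve libraries (log scale on the x axis, number of pairs on the y axis). Triangles mark the pairs of bridge libraries, the pairs of intact libraries and, at 3.902, the pair of bridge 1 and the distal library of the same animal, which stands apart from every other pair. The dotted line at 1 is the value that counting noise alone would give.

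The sex of the animals also differed between the groups, as read from RNA. All 3 bridge libraries had 0 or 1 count on the Y-linked genes Ddx3y, Eif2s3y, Kdm5d and Uty and between 981 and 2180 counts on Xist, the RNA that silences an X chromosome in females. Intact 0, 1, 3 and 4 had more counts on these Y-linked genes than on Xist, and intact 5 had fewer. The effect of region can be separated from that of sex only through intact 5 and the libraries of other regions and days, and a fit with a sex term over all 35 libraries was added for this. In 3 of 11 pairs of a bridge and a distal library labelled as the same animal, none of them of day 4, these genes did not match, so that the animal labels behind some of the 35 libraries are in doubt. Distal libraries 0 and 1 of day 6 held counts of both kinds, 1741 and 1248 on the Y-linked genes and 3395 and 1578 on Xist. The sex term placed both with the libraries in which Xist had more counts. Counts are also given without intact 0 and 1, without those and the day 2 distal library, bridge 1 and its distal partner (5 libraries in all), and with the sex term.

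Markers of other cell types were present in the sorted cells and moved with the groups, and they are given first because they stand beside many of the results. The summed level of 18 macrophage markers, in CPM, the counts scaled to a common library size with TMM factors, was between 10605 and 20613 in the bridge libraries and between 538 and 2591 in the intact libraries. The sum of 12 endothelial markers was between 599 and 1396 in the bridge and between 3637 and 6479 in intact nerves. The sum of 8 perineurial markers was between 205 and 385 in the bridge and between 956 and 3203 in intact nerves. Neither the macrophage, the endothelial nor the perineurial sums overlapped between the groups.

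Fibroblast markers were abundant in both groups, with sums of 26863 to 64217 CPM in the bridge and 26955 to 52824 CPM in intact nerves for 14 genes. The 12 SC markers summed to between 617 and 1931 CPM in the bridge and between 1746 and 6517 CPM in intact nerves. Sox10, the transcription factor that defines SCs, was at 30.5, 46.5 and 7.64 CPM in the bridge and at 27.6, 41.0, 32.2, 107 and 20.5 CPM in intact nerves. It was lowest in bridge 2, which also had the lowest sum of SC markers and the highest sum of fibroblast markers. In RNA from many sorted cells at once, fewer cells of a type and less RNA per cell cannot be told apart. The part of other cell types in the changes described here was not tested.

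**Figure D2:**
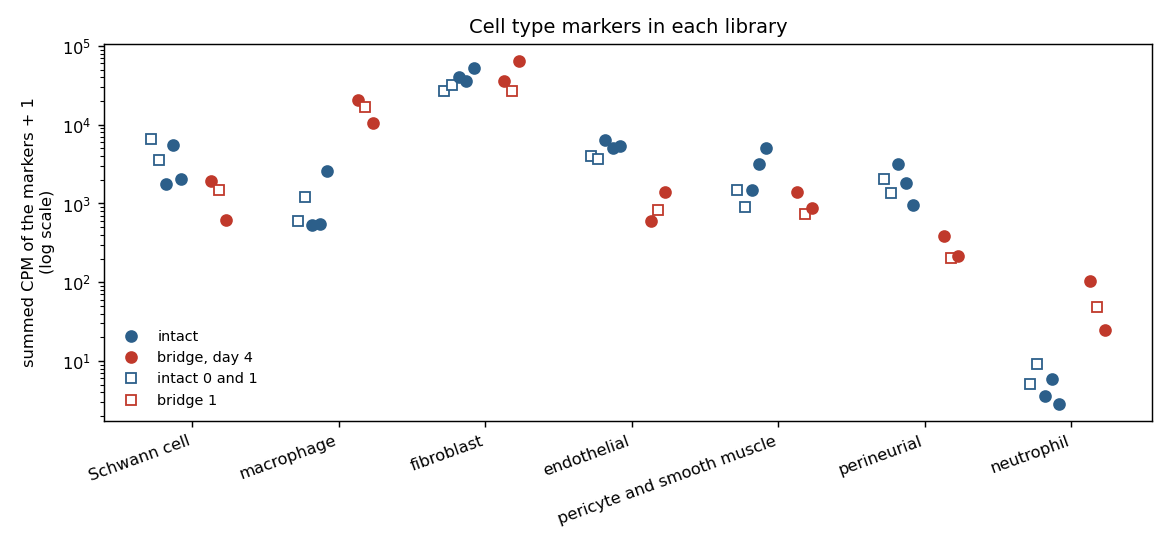
Summed level of the markers of 7 cell types in each of the 8 libraries, as CPM + 1 on a log scale. Blue stands for intact and red for bridge libraries, and open squares mark intact 0, intact 1 and bridge 1. The macrophage sums are higher in every bridge library than in any intact library, the endothelial and perineurial sums are lower, and the fibroblast sums overlap.

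At an adjusted p under 0.05 (edgeR's quasi-likelihood test with Benjamini-Hochberg adjustment), 195 of the 11138 genes tested were higher in the bridge (1.75%) and 76 were lower (0.682%). At an unadjusted p under 0.05, 783 of the 11138 genes were higher and 749 were lower. The median log2 fold change over all genes tested was -0.03. The 271 genes had a median absolute log2 fold change of 2.85, and 207 of them had changed more than 4-fold. In 251 of them no bridge library overlapped an intact library. Over all genes tested, 774 did not overlap and were higher in the bridge (6.95%), and 495 did not overlap and were lower (4.44%).

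The number of genes called depended on the libraries and on the model. Without bridge 1 and its distal partner, 128 genes were higher and 19 lower (1.15% and 0.171%), of which 122 and 14 were shared with the full fit. Without intact 0 and 1, 152 were higher and 80 lower (1.36% and 0.718%), with 102 and 42 shared. Without the 5 libraries, 221 were higher and 97 lower (1.98% and 0.871%), with 121 and 30 shared. With the sex term, 81 were higher and 28 lower (0.727% and 0.251%), with 80 and 26 shared. These 4 are called the narrower fits below, and their counts are given in this order. In all of them no called gene changed sign, and 71 genes, 62 higher and 9 lower, were called in every one of the 5 fits. These 71 genes are called the retained genes below.

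DESeq2 called 380 genes higher and 466 lower (3.41% and 4.18%), so that its calls were mostly lower where those of edgeR were mostly higher, and it included all 271 genes. These tests take the spread from all 35 libraries. With the spread of the 8 libraries alone edgeR called 6 genes higher and 3 lower, among them Fbn2, Timp1 and Ctss (higher) and Mbp, Cldn5 and Ctxn3 (lower). Below, the number of alternatives in which a gene stayed past the threshold is out of 22 such settings, or 21 where the filter of a setting removed it.

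**Figure D3:**
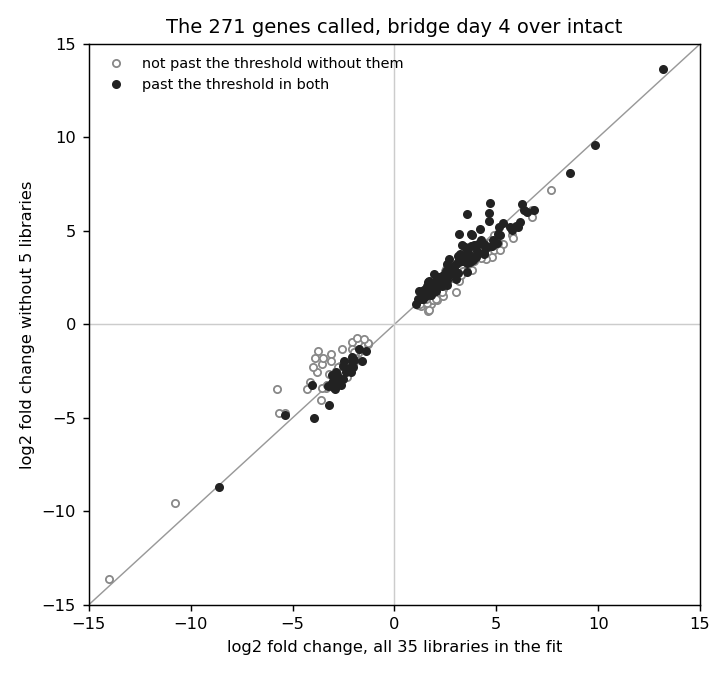
Each point is 1 of the 271 genes called between bridge day 4 and intact nerves. The x axis is the log2 fold change with all 35 libraries in the fit and the y axis the log2 fold change without 5 libraries (intact 0 and 1, bridge 1, its distal partner and a day 2 distal library). All points keep their sign, and the 151 filled points are past the threshold in both fits.

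Myelin genes had the lowest median of all the gene lists. Of 23 myelin protein genes tested, 6 were lower and 0 higher, the median log2 fold change was -3.92 against -0.03 over all genes, and 22 of 23 had a negative value. In 16 of them no bridge library overlapped an intact library. The summed level of the 25 listed genes was 1103 to 2520 CPM in the bridge and 9440 to 57457 CPM in intact nerves.

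Mbp, a membrane-compacting protein of myelin, fell from 9236, 4115, 4012, 5556 and 1576 CPM in intact nerves to 148, 86.0 and 124 CPM in the bridge (log2 fold change -5.36 ± 1.17, edgeR adjusted p = 0.0101). Mbp passed in 17 of 22 alternatives.

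Pmp22, a membrane protein of compact myelin whose dosage is altered in inherited neuropathies (chr11:62942484-62973049, plus strand, build NCBIM37, as for all gene positions here), was at 475, 365 and 493 CPM in the bridge and at 17174, 5743, 1976, 8477 and 3482 CPM in intact nerves. Its log2 fold change was -4.05 ± 0.70 (edgeR adjusted p = 0.00108), and it passed in 21 of 22 alternatives. Pmp22 was the myelin gene among the retained genes. Pllp (-5.77), Mal (-4.13) and Cd9 (-3.90), encoding other membrane proteins of myelin, also fell, and passed in 13 of 21, 14 of 22 and 16 of 22 alternatives.

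The myelin calls were fewer in the narrower data. They numbered 2 without bridge 1, 2 without intact 0 and 1, 1 without the 5 libraries and 3 with the sex term, while the median log2 fold change of the list stayed between -4.01 and -2.90. Intact 0 held the highest level of Mbp and Pmp22 of the 8 libraries. Prx, which encodes periaxin, was at 26.1, 9.34 and 5.48 CPM in the bridge and at 190 to 580 CPM in intact nerves, with a log2 fold change of -4.47 that did not pass (edgeR adjusted p = 0.0721).

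**Figure D4:**
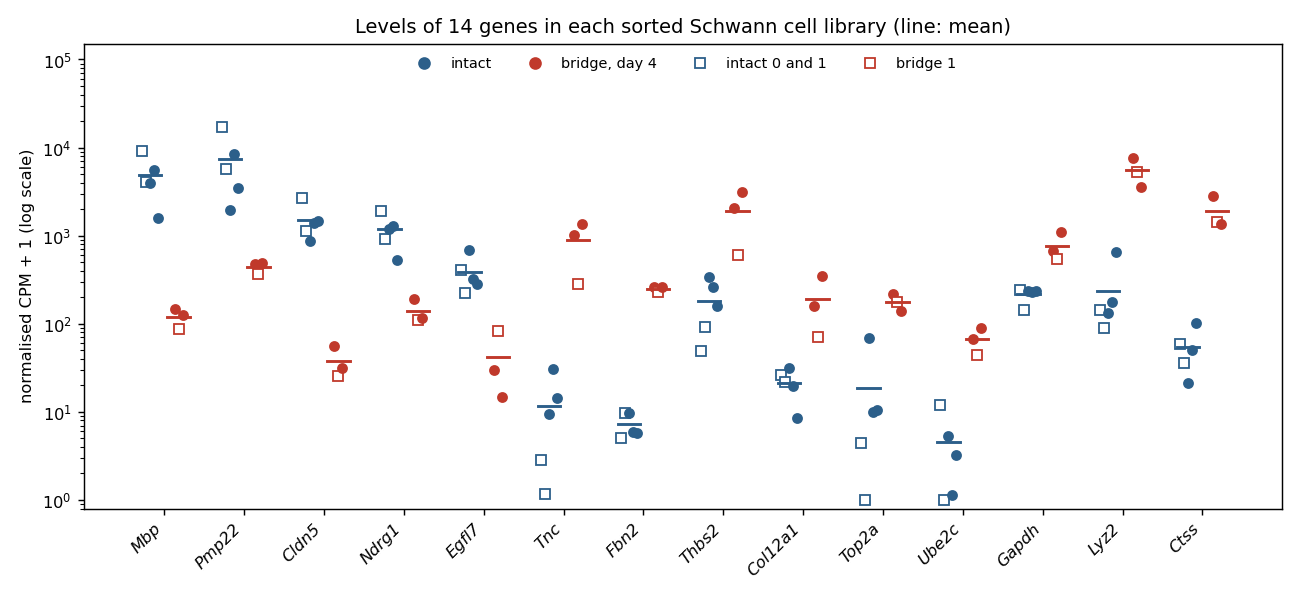
Level of 14 genes in each library, as CPM + 1 on a log scale, with intact libraries in blue, bridge libraries in red and a line at the mean of each group. Open squares are intact 0, intact 1 and bridge 1. In each of the 14 genes the points of the groups do not overlap, with bridge libraries below intact libraries for Mbp to Egfl7 and above them for Tnc to Ctss.

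Genes of lipid synthesis lay lower in the bridge but few of them passed. Of 22 genes of cholesterol synthesis, 3 fell and 0 rose, and all 22 had a negative log2 fold change, with a median of -1.58. Msmo1, a sterol demethylase, was at 64.2, 13.5 and 51.4 CPM in the bridge and at 1475, 909, 115, 239 and 113 CPM in intact nerves (log2 fold change -3.73 ± 0.93, edgeR adjusted p = 0.0264). Idi1, the isopentenyl diphosphate isomerase (-3.82), and Fdps, the farnesyl diphosphate synthase (-2.07), were the others.

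The highest values of Msmo1 and Idi1 were those of intact 0 and 1. No cholesterol gene was called in any of the 4 narrower fits, and the median of the list was -1.01 without intact 0 and 1. Among 22 genes of fatty acid and sphingolipid synthesis, Sgms1, a sphingomyelin synthase, fell (-1.98) and none rose, with a median of -0.60. The narrower fits gave 0, 1, 1 and 0 calls. A single call in a list of this size is near the share of 0.682% lower over all genes. Sgms1 passed in 9 of 22 alternatives, and intact 1, at 32.9 CPM, lay within the bridge range of 23.2 to 58.5 CPM.

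Of 15 transcription factors and receptors of myelination tested, 0 fell with edgeR or DESeq2 (0 also at an unadjusted p under 0.05), beside 0.682% of all genes, and the median log2 fold change was -0.12. With so few genes this count is near that share, and a difference from the myelin proteins was not tested. Egr2, the main transcription factor of myelination, was at 70.2, 25.9 and 63.5 CPM in the bridge and at 87.2, 5.33, 67.1, 133 and 49.3 CPM in intact nerves (log2 fold change -0.36 ± 0.83, edgeR adjusted p = 0.933). Its libraries overlapped entirely. Sox10, described above, had a log2 fold change of -0.69 (adjusted p = 0.767).

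Some genes of cell contacts were lower in the bridge as well. Of 27 genes of axon-glia contact and junctions tested, 4 fell and 0 rose, with a median log2 fold change of -1.05. Cldn5, encoding a claudin of tight junctions (chr16:18776940-18778353, plus strand), was at 55.6, 24.7 and 30.5 CPM in the bridge and at 2643, 1140, 870, 1402 and 1473 CPM in intact nerves. The log2 fold change was -5.35 ± 0.95 (edgeR adjusted p = 0.00134), and Cldn5 passed in 22 of 22 alternatives.

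The other members that fell were Scn7a, a sodium channel of non-myelinating SCs (-3.09), Tjp1, the scaffold protein ZO-1 (-2.29), and Cldn1, another claudin (-2.66). The list gave 1 call without bridge 1, 2 without intact 0 and 1, 2 without the 5 libraries and 2 with the sex term. Cldn5 is also a defining endothelial marker and Cldn1 a perineurial marker. Of 12 endothelial markers tested, 2 fell (Cldn5 and Egfl7) and the median was -2.14, and of 8 perineurial markers 2 fell (Cldn1 and Slc2a1) and the median was -2.85. In the narrower fits the endothelial calls numbered 2, 4, 3 and 2 and the perineurial calls 0, 2, 2 and 1, all lower. None of these 20 markers was at 0 in all bridge libraries. All of the 12 endothelial and all of the 8 perineurial values were negative.

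Ndrg1, a stress-responsive gene that is also needed for peripheral myelin (chr15:66760883-66801202, minus strand), was at 191, 109 and 116 CPM in the bridge and at 1929, 923, 1194, 1299 and 529 CPM in intact nerves (log2 fold change -3.08 ± 0.52, edgeR adjusted p = 0.000954, 21 of 22 alternatives). Of the 9 retained genes that were lower, Pmp22, Cldn5, Egfl7 and Ndrg1 belonged to the lists. Ndrg2, a relative of Ndrg1 that was looked at after its values were seen, was another, at 89.7, 58.3 and 48.2 CPM in the bridge and 324 to 729 CPM in intact nerves (-3.03).

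Some genes of intact nerves were not counted at all in the bridge. Ctxn3, encoding the small membrane protein cortexin 3, had 0 counts in all 3 bridge libraries and was at 259, 152, 181, 90.9 and 33.5 CPM in intact nerves. Taking 3 counts over the bridge libraries together as the floor, it was at least 1612-fold lower. Ptprz1, a receptor-type tyrosine phosphatase of glia, was likewise at 0 in the bridge and at 26.3, 31.8, 0.0544, 11.4 and 6.50 CPM in intact nerves, at least 171-fold lower. Intact 3 held almost none of it. Ctxn3 passed in 14 of 21 and Ptprz1 in 13 of 21 alternatives.

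Several genes of the provisional and matricellular matrix were higher in the bridge. Of 25 genes tested, 8 rose and 1 fell, and the median log2 fold change was 1.37. The calls were 8 and 0 without bridge 1, 7 and 1 without intact 0 and 1, 8 and 1 without the 5 libraries, and 8 and 0 with the sex term. Of the 8 genes, 7 (Fn1, Tnc, Thbs2, Vcan, Loxl2, Fbn1 and Fbn2) were retained genes.

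Tnc, encoding the matrix glycoprotein tenascin C (chr4:63620819-63681760, minus strand), was at 1019, 283 and 1346 CPM in the bridge. It was at 1.85, 0.184, 8.44, 29.8 and 13.4 CPM in intact nerves. Bridge 1 was the lowest bridge library and still lay well above every intact library. The log2 fold change was 6.34 ± 0.88 (edgeR adjusted p = 8.94e-05), and 6.77 without bridge 1.

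Fbn2, encoding fibrillin-2 of microfibrils, had nearly equal levels in the bridge libraries. Its level was 259, 229 and 259 CPM in the bridge and 4.09, 8.63, 8.65, 4.89 and 4.71 CPM in intact nerves. Its log2 fold change was 5.33 ± 0.56 (edgeR adjusted p = 7.15e-07, 22 of 22 alternatives). Thbs2, encoding thrombospondin 2 (chr17:14802507-14831269, minus strand), was at 2056, 610 and 3121 CPM in the bridge and at 47.5, 90.9, 343, 263 and 159 CPM in intact nerves (3.42 ± 0.52, edgeR adjusted p = 0.000263). Bridge 1 was again the lowest of the bridge libraries, as for Tnc.

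Vcan, the proteoglycan versican (2.78), Loxl2, a collagen-crosslinking lysyl oxidase (2.85), and Fbn1, fibrillin-1 (2.14), rose as well. So did Fn1, fibronectin (2.46), and Lox, lysyl oxidase (3.04), which were outside the rule for naming and are given because they complete the list. Dcn, the small proteoglycan decorin and also a fibroblast marker, was the member that fell, from 9554 to 18858 CPM in intact nerves to 5759, 5018 and 5860 CPM in the bridge (-1.48 ± 0.40, edgeR adjusted p = 0.041). It passed in 9 of 22 alternatives. Of 14 fibroblast markers, Col1a2 rose, Dcn fell and 12 did not pass, with a median of 0.46, and in the narrower fits 1, 0, 0 and 0 were higher and 0, 1, 1 and 0 lower. Bridge 2, with the highest fibroblast sum, had the highest Tnc, Thbs2, Vcan, Loxl2 and Fbn1.

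Among 21 collagen genes, 5 rose and 0 fell, with a median log2 fold change of 1.30. Col12a1, encoding a collagen that associates with fibrils, was at 160, 70.5 and 344 CPM in the bridge and at 25.3, 20.6, 30.2, 18.5 and 7.44 CPM in intact nerves (3.23 ± 0.69, edgeR adjusted p = 0.00827). It was the retained gene of the list. The fibrillar collagen genes Col5a2 (2.31), Col5a1 (1.82) and Col1a2 (1.6) and the microfibrillar Col6a3 (1.59) also rose. The calls numbered 5 without bridge 1, 2 without intact 0 and 1, 3 without the 5 libraries and 1 with the sex term. Col3a1, the collagen with the highest counts, was at 7528, 7963 and 17657 CPM in the bridge and at 2764 to 7636 CPM in intact nerves, and did not pass (1.09, edgeR adjusted p = 0.208).

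Of 20 matrix proteases and inhibitors, 3 rose and 0 fell, with a median of 1.13. Timp1, an inhibitor of matrix metalloproteinases, was at 186, 200 and 305 CPM in the bridge and at 33.1, 23.1, 16.5, 25.3 and 32.0 CPM in intact nerves (3.14 ± 0.66, edgeR adjusted p = 0.00762, 22 of 22 alternatives). Adam12 (4.91) and Adamts4 (3.61), both metalloproteinases, passed in 7 of 21 and 12 of 22 alternatives. In the narrower fits 1, 1, 3 and 1 members of this list were higher and 0, 1, 0 and 0 lower. Of 23 laminins and integrins, the components and receptors of the basal lamina, 0 passed with edgeR (3 higher and 3 lower at an unadjusted p under 0.05) and 2, both lower, with DESeq2, and the median was 0.33 in the full fit and -0.01 without the 5 libraries. In the narrower fits 0, 0, 1 and 0 of them were higher and 0, 1, 2 and 0 lower.

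Some other genes outside the lists stood among the retained genes and were looked at after their values were seen. Cthrc1, encoding a secreted collagen-repeat protein, was at 1142, 790 and 3260 CPM in the bridge and at 196, 38.8, 49.7, 25.1 and 31.7 CPM in intact nerves (4.66 ± 0.69, edgeR adjusted p = 0.000219). Cd44, the hyaluronan receptor, was at 673, 350 and 1243 CPM and at 55.8 to 118 CPM (3.10 ± 0.37, adjusted p = 9.53e-06). H19, an imprinted long non-coding RNA, was at 268, 950 and 1100 CPM and at 16.9 to 48.6 CPM (4.45 ± 0.56, adjusted p = 2.24e-05). In each of the 3 genes no bridge library overlapped an intact library.

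Several genes of cell division rose in the bridge. All 28 mitosis genes tested had a positive log2 fold change, with a median of 2.59, and 6 of them passed. Of 28 genes of DNA replication, 3 passed (Tk1, 4.25, Mcm5, 3.35, and Mcm6, 2.90), 25 had a positive and 3 a negative value, and the median was 1.85. The 30 listed mitosis genes summed to 2433, 1598 and 2059 CPM in the bridge and to 177, 154, 861, 217 and 209 CPM in intact nerves. Intact 3 stood above the other intact libraries, and the groups did not overlap.

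The 6 mitosis genes that rose were Birc5 (survivin, 3.09), Ccna2 (cyclin A2, 1.72), Kif20a (a mitotic kinesin, 2.59), Ube2c (a ubiquitin-conjugating enzyme of the anaphase-promoting complex, 4.2), Cdk1 (the kinase that drives entry into mitosis, 2.55) and Top2a (DNA topoisomerase II alpha, 3.29). Because members of this group moved together, promoter sequences are shown for the 3 of them in which a script found both of the short motifs it searched for. Positions and sequences are from RefSeq on build GRCm38.p6, from 250 bases before to 50 bases after the start of the gene, and read along the gene. They are chr10:69352863-69353162 (minus strand) for Cdk1, chr11:99024140-99024439 (minus strand) for Top2a and chr2:164769679-164769978 (plus strand) for Ube2c. Capitals mark CCAAT, the core of the binding site of NF-Y, and TTTGAA, the core of the cell cycle homology region (CHR), each in either direction (ATTGG and TTCAAA on the strand shown).
Cdk1: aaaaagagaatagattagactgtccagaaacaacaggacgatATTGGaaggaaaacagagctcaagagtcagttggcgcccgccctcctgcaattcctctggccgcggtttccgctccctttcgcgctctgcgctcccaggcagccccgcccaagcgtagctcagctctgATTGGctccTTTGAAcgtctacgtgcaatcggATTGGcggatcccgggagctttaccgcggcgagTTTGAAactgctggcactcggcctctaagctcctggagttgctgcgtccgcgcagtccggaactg
Top2a: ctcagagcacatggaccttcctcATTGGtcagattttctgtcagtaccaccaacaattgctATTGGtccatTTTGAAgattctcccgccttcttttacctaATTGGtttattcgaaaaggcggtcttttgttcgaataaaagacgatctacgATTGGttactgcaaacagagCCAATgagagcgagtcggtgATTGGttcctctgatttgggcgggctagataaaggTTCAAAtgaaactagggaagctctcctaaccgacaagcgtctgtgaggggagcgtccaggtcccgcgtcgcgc
Ube2c: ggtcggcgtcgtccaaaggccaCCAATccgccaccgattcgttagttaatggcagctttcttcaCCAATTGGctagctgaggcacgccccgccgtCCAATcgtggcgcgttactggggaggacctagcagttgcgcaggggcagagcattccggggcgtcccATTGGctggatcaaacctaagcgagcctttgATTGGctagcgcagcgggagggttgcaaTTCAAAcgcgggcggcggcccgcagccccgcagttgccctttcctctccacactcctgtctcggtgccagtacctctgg
Of the 6 genes 4 had a promoter in the table, and Birc5 was the one that did not hold both motifs. CCAAT was present in 37.4% of all 32851 promoters of this length, TTTGAA in 17.9%, and both in 6.95%. Of the 26 listed mitosis genes with a promoter, 17 held both. Overlapping matches on opposite strands, as in Ube2c, were counted separately. A match is a description of the letters and not of a site in use.

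Top2a (chr11:98854257-98885503, minus strand, NCBIM37) was at 216, 175 and 138 CPM in the bridge and at 3.43, 0, 67.3, 9.02 and 9.57 CPM in intact nerves (3.29 ± 0.92, edgeR adjusted p = 0.0491). Ube2c was at 66.0, 42.9 and 88.1 CPM and at 11.1, 0, 4.35, 0.153 and 2.23 CPM. The groups did not overlap in either gene, and intact 3 was the highest intact library for Top2a. Both passed in 8 alternatives, of 22 for Top2a and of 21 for Ube2c. Mki67, the usual marker of cycling cells, was at 71.3, 118 and 58.5 CPM in the bridge and at 0, 0, 52.0, 1.53 and 0.149 CPM in intact nerves, and did not pass (2.94 ± 1.32, edgeR adjusted p = 0.292).

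The mitosis calls numbered 1 without bridge 1, 4 without intact 0 and 1, 4 without the 5 libraries and 1 with the sex term, with medians between 2.12 and 2.79. No replication gene was called in any of these fits, with medians between 1.5 and 2.13. The macrophage sums given above were higher in the same libraries, and their part in these values was not tested. Pbk, a mitotic kinase outside the lists, was looked at after its values were seen and was a retained gene (5.03 ± 1.06, edgeR adjusted p = 0.00788).

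A few metabolic and cytoskeletal genes passed the test. Gapdh, the glycolytic dehydrogenase often used as a reference gene, was at 670, 540 and 1103 CPM in the bridge and at 244, 141, 237, 230 and 237 CPM in intact nerves (1.82 ± 0.37, edgeR adjusted p = 0.00603). It was a retained gene, and so was Pgam1, a phosphoglycerate mutase (1.33). For Pgam1 the groups overlapped, with bridge 1 at 240 CPM and intact 1 at 251 CPM. Of 16 glycolysis genes 3 rose, including Hk2, a hexokinase (3.51, 10 of 21 alternatives), and 1 fell, with a median of 0.82. The member that fell was the glucose transporter Slc2a1 (-2.87 ± 0.58), at 65.8 to 144 CPM in the bridge and 492 to 1286 CPM in intact nerves. Slc2a1 is also the perineurial marker named above. In the narrower fits 3, 2, 4 and 2 glycolysis genes were higher and 0, 1, 1 and 1 lower.

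Of 14 genes of the hypoxia response, P4ha2, a collagen prolyl hydroxylase, rose (2.52) and Ndrg1 fell, and the median was -0.03. In the narrower fits 1, 0, 2 and 1 members were higher and 1 was lower in each. The groups overlapped for P4ha2, with bridge 1 at 64.4 CPM and intact 3 at 67.3 CPM. Of 33 genes of actin and focal adhesion, 3 rose, namely Anxa2, annexin A2 (1.43), Flnc, filamin C (2.05), and Tagln2, transgelin 2 (1.33), with a median of 0.62. The actin calls in the narrower fits numbered 2, 0, 1 and 2. Srm, spermidine synthase, was the member of 27 MYC and ribosome biogenesis genes that rose (1.45), with 1, 0, 1 and 0 calls in the narrower fits. Hmox1, haem oxygenase 1, was the member of 20 immediate early and stress genes that rose (2.49), and the median of that list was -0.55, with 0 members higher in any narrower fit and 1 lower without the 5 libraries. A single call in lists of this size is near the shares over all genes (1.75% higher and 0.682% lower).

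Genes known from repair and immature SCs were mixed at this time. Of 30 listed, 15 had enough counts to be tested, 2 rose (Runx2 and Gap43), 0 fell and the median was 0.98. The calls in the narrower fits numbered 1, 2, 1 and 1. Runx2, a transcription factor, was at 59.9, 76.1 and 39.4 CPM in the bridge and at 0, 0, 0, 3.67 and 0.298 CPM in intact nerves (6.08 ± 1.24, edgeR adjusted p = 0.006), and it was a retained gene. Gap43, a growth-associated membrane protein, was at 9.46, 48.2 and 204 CPM and at 0.264 to 21.1 CPM, so that bridge 0 lay within the intact range, and passed in 10 of 22 alternatives.

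Jun, the transcription factor that directs the repair programme, was at 258, 490 and 221 CPM in the bridge and at 172, 25, 711, 754 and 573 CPM in intact nerves. The bridge libraries lay within the intact range (log2 fold change -0.47 ± 0.74, edgeR adjusted p = 0.889). Ngfr, the p75 neurotrophin receptor of non-myelinating and repair SCs, was at 397, 458 and 52.7 CPM and at 37.6, 46.7, 27.9, 127 and 59.3 CPM. Bridge 0 and 1 lay above all intact libraries and bridge 2 did not (2.34 ± 0.76, edgeR adjusted p = 0.0990).

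Sox2, a transcription factor of immature SCs, had too few counts for the test, with 6.66, 25.8 and 0.498 CPM in the bridge and 11.2, 0, 0.272, 2.60 and 1.29 CPM in intact nerves. Shh, a secreted protein of repair SCs that was looked at after its values were seen, was below the count limit too, at 20.8, 34.5 and 1.91 CPM against 0.367 to 3.01 CPM. Bridge 1 was the highest library for both. Gdnf, Olig1 and Bdnf, which belong to the same list, were at 0 in bridge 0 and 2, and among the bridge libraries were counted in bridge 1.

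Few genes in a short list for the epithelial-mesenchymal transition (EMT), and none in a TGFβ pathway list, passed the test. The study's EMT signature is a wider published gene set and was not tested here. Matrix genes were counted in the lists above and not in this one. Of 12 EMT transcription factors, cadherins and Vim that were tested, Vim, the intermediate filament vimentin, rose (1.68 ± 0.36, edgeR adjusted p = 0.00951) and the median was 0.49, with 0, 0, 0 and 1 calls in the narrower fits. Vim was at 1264, 3752 and 1337 CPM in the bridge and at 469 to 1028 CPM in intact nerves. Bridge 1 lay far above the other bridge libraries, and without it the log2 fold change was 0.97 and Vim did not pass (adjusted p = 0.214, with a range of 0.000572 to 0.348 over its 22 alternatives).

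Cdh1, E-cadherin of SC junctions, was at 0, 0 and 1.91 CPM in the bridge and at 3.04, 28.7, 6.86, 50 and 11.4 CPM in intact nerves. The groups did not overlap, but the spread was wide and it did not pass (-4.94 ± 2.59, edgeR adjusted p = 0.41). Cdh2, N-cadherin, which holds SCs together, was at 24.3, 33.4 and 32.6 CPM and at 20.8 to 125 CPM, and did not pass (-1.29, adjusted p = 0.456). Myc, a growth-promoting transcription factor, was at 39.1, 21.3 and 45.8 CPM and at 0, 9.55, 55.0, 42.5 and 54.2 CPM (0.13 ± 0.83, adjusted p = 0.979). Without intact 0 and 1 its value was -0.53, and it passed in neither case.

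Of 22 genes of the TGFβ pathway, 0 passed with either edgeR or DESeq2 (3 higher and 2 lower at an unadjusted p under 0.05 with edgeR), a count near the shares of 1.75% and 0.682% over all genes, and the median was 0.26. Without the 5 libraries 1 member was lower and the median was -0.05. Tgfbr2, the type II receptor, was at 473, 370 and 676 CPM in the bridge and at 17.4, 132, 256, 238 and 323 CPM in intact nerves. No bridge library overlapped an intact library, but it did not pass (1.39 ± 0.52, edgeR adjusted p = 0.175). Of 102 mouse counterparts tested of genes that TGFβ raised in cultured rat SCs, 0 passed with edgeR, 10 were higher and 6 lower at an unadjusted p under 0.05, and the median was 0.24. Over all 11138 genes tested, 783 were higher and 749 lower at this unadjusted p. DESeq2 called 2 of them higher and 5 lower. Of 33 counterparts of genes that TGFβ lowered, 2 rose (Lrrc17, 3.73, and Runx2) and the median was -0.83, with 2, 1, 2 and 2 calls in the narrower fits.

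Of 23 guidance genes of the Eph, Slit and semaphorin families, 0 passed with edgeR (4 higher and 1 lower at an unadjusted p under 0.05) and 1, lower, with DESeq2, and the median was -0.01. Ephb2, a receptor in the sorting of SCs by fibroblasts, was at 18.7, 10.7 and 8.97 CPM in the bridge and at 0, 4.78, 8.71, 9.48 and 16.4 CPM in intact nerves (0.69, edgeR adjusted p = 0.872). The libraries of the groups overlapped. Of 12 cytokines and chemokines, 0 passed with edgeR (4 higher and 1 lower at an unadjusted p under 0.05), DESeq2 called 1 higher and 1 lower, and the median was 1.11, or 0.39 without bridge 1. At that unadjusted p, 783 of all 11138 genes tested were higher and 749 lower. The highest level of Ccl2, Ccl7 and Ccl8, attractants of monocytes that were looked at after their values were seen, was that of bridge 1, at 264, 362 and 642 CPM.

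**Figure D5:**
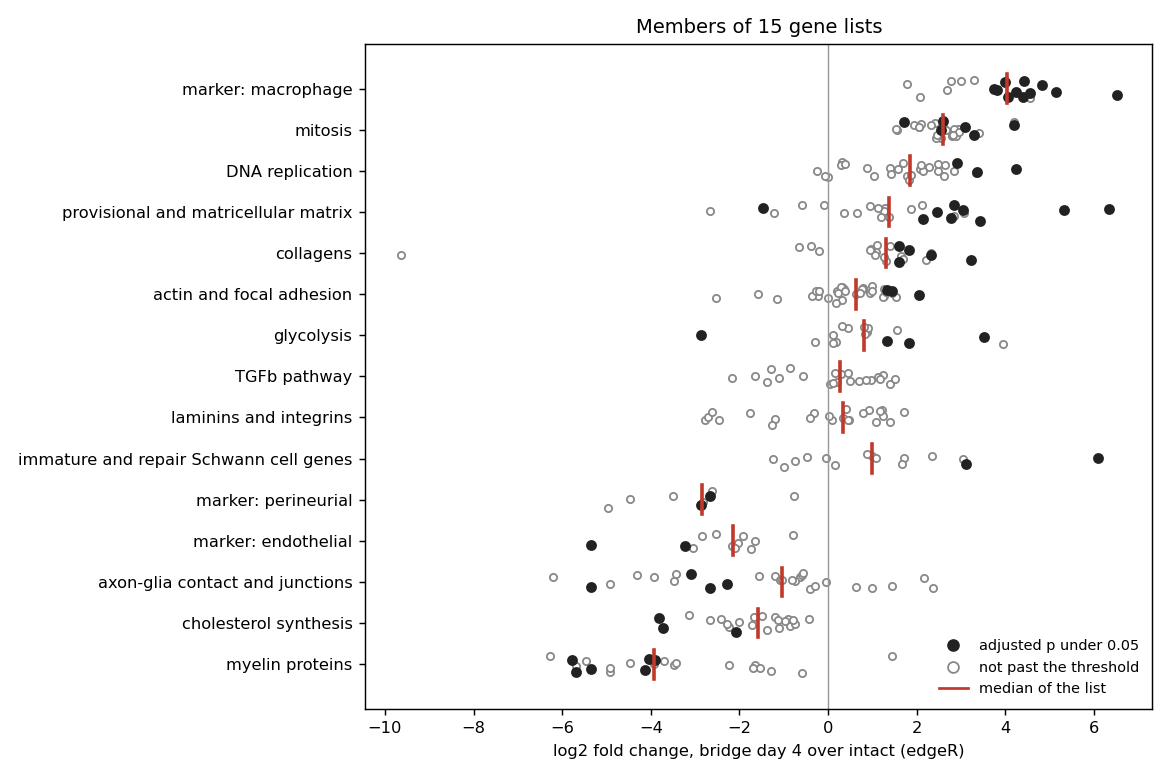
Log2 fold change, bridge day 4 over intact (edgeR), of each tested member of 15 gene lists. Filled points are past an adjusted p of 0.05, open points are not, and the red line is the median of the list. The medians run from -3.92 for myelin proteins to 4.03 for macrophage markers, and the mitosis points all lie above 0.

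Markers of macrophages rose in the bridge. Of 18 macrophage markers, 11 rose and 0 fell, with a median log2 fold change of 4.03. The number was 11 without bridge 1, 12 without intact 0 and 1, 12 without the 5 libraries and 10 with the sex term, and 10 of the markers were retained genes. None of the markers was at 0 in all intact libraries, and none was at 0 in all bridge libraries.

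Lyz2, encoding lysozyme (chr10:116714390-116719377, minus strand), was at 7716, 5323 and 3611 CPM in the bridge and at 144, 88.3, 133, 176 and 647 CPM in intact nerves (4.55 ± 0.69, edgeR adjusted p = 0.000256). Ctss, the lysosomal protease cathepsin S (chr3:95330708-95360325, plus strand), was at 2837, 1446 and 1363 CPM and at 58.1, 35.3, 20.4, 49.1 and 102 CPM (5.15 ± 0.66, edgeR adjusted p = 2.31e-05, 22 of 22 alternatives). Bridge 0 was the highest and bridge 2 the lowest bridge library for both. The complement genes C1qa (3.80) and C1qb (4.24) and Emr1, which encodes F4/80 (4.82), followed.

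Among the 12 genes with the largest increase, Tlr13, an endosomal receptor of bacterial RNA, had 0 counts in all 5 intact libraries and was at 182, 28.3 and 27.8 CPM in the bridge. Taking 3 counts over the intact libraries together as the floor, it was at least 1905-fold higher, or at least 673-fold without bridge 0, the highest library. Slc37a2, a sugar phosphate transporter of macrophages, was at 113, 81.6 and 51.4 CPM in the bridge and at 0 to 0.694 CPM in intact nerves (8.60 ± 0.88, edgeR adjusted p = 7.15e-07, 22 of 22 alternatives). Rbm47 (6.87), an RNA-binding protein, Myo1f (6.14), a leukocyte myosin, Parvg (7.70), a leukocyte parvin, Clec5a (6.77), a myeloid lectin, Fcgr4 (6.76), an Fc receptor, and Itgam (6.51), the integrin CD11b, had values of the same order. Of the 12, Tnc was in the list of matricellular matrix and Runx2 in that of repair and immature SC genes.

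Neutrophil markers were low in both groups, with sums of 23.5 to 102 CPM for 9 genes in the bridge and 1.88 to 8.08 CPM in intact nerves. Csf3r, the receptor of granulocyte colony-stimulating factor, was the member tested and rose (6.28, not past the threshold with the sex term), while S100a9, Ltf, Ngp and Camp, which define neutrophils, were at 0 in all 8 libraries. Markers of lymphocytes and of erythroid cells had too few counts for any test, with sums of at most 17.3 and 3.77 CPM. Of 10 markers of pericytes and smooth muscle, 0 passed with either tool, 1 was lower at an unadjusted p under 0.05, and the median was -1.21.

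The distal stump cells of the same animals and day were used to see which of these values were particular to the bridge. With edgeR, 0 of 11138 genes differed between bridge and distal stump at day 4 (0.0%), 145 had an unadjusted p under 0.05, and DESeq2 called 8 genes higher and 15 lower (0.207%). Without bridge 1 and its distal partner edgeR again called 0, and 358 genes had an unadjusted p under 0.05. A fit with the animal as a block also gave 0, with 193 at an unadjusted p under 0.05. Of the genes named here DESeq2 called Ctxn3 lower, at 18.8, 0 and 4.81 CPM in distal libraries 0, 1 and 2, and Cdh1 higher, at 0 in all 3 distal libraries and 1.91 CPM in bridge 2. With edgeR a difference from the distal stump was not detectable for any named gene, which does not show that the regions were alike.

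The values of the distal stump are set beside those of the bridge, with which they share animals. The medians of the bridge over the distal stump were 0.24 for myelin proteins, 0.27 for mitosis, 0.23 for the matricellular matrix, 0.10 for collagens and 0.08 for macrophage markers, on the log2 scale, beside -0.01 for all genes tested. Without bridge 1 and its distal partner they were 0.28, 0.37, 0.32, 0.15 and 0.11 in the same order, beside -0.03 for all genes tested. Some lists lay further from the value of all genes. Glycolysis was at 0.63 (0.78 without the pair) and actin and focal adhesion at 0.42 (0.57). SC markers were at -0.48 (-1.26), perineurial markers at -0.57 (-0.91) and immediate early and stress genes at -0.74 (-1.21). Repair and immature SC genes went from -0.23 to -0.97. The fold changes of single genes over the distal stump given here include bridge 1 and its distal partner. Tnc was at 837, 309 and 338 CPM in distal libraries 0, 1 and 2 (log2 fold change of bridge over distal 0.84 ± 0.88). Pmp22 was at 346, 387 and 319 CPM in these libraries, against 475, 365 and 493 CPM in the bridge (0.34 ± 0.64). Timp1 was at 36.0, 172 and 61.9 CPM in the distal stump, below the bridge libraries of 186, 200 and 305 CPM, with a log2 fold change of 1.36 ± 0.75 that did not pass (edgeR adjusted p = 1.0). The distal value of 172 CPM is that of the library that matched bridge 1.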

How the data were processed

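Libraries had been prepared with Smart-seq2, which amplifies full-length cDNA from little RNA. The authors aligned the reads to mm9 with TopHat2 2.0.11 (submitters' processing notes), used HTSeq to count reads on genes, and deposited the raw counts without normalization. HTSeq's own categories and 92 spike-ins were left out. Reads are not independent molecules. Counting is not stated to use strand, so overlapping, antisense and near-identical genes are uncertain.

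Counts were fitted here with edgeR 4.0.16 (R 4.3.3, TMM factors, quasi-likelihood test, Benjamini-Hochberg adjustment) in 1 fit of 35 single-nerve libraries. A gene was tested where at least 3 of the 8 libraries had 100 counts, and called at an adjusted p under 0.05. DESeq2 1.42.0 and other filters, scalings and sets of libraries were the alternatives. Members, gene lists and tests were chosen with earlier results of these data known, and the lists of TGFβ-responsive genes are those the study derived from its rat libraries.

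Genes named are the 12 with the largest change in each direction among called genes whose groups do not overlap, up to 6 called members of each list by adjusted p and its member of highest mean CPM, and genes that the study's text names. Not every gene that this rule names is reported here. Others are marked as chosen after their values were seen.

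Bridge and intact libraries that share a number in the labels came from different animals, and their deviations from the group means correlated at 0.012 and 0.092, so the numbers do not pair them. Bridge and distal libraries of the same animal correlated at 0.438, 0.683 and 0.124. P-values measure the spread between libraries of the same region and day, pooled over all 35 libraries. The main fit took these libraries as independent. By the labels, 11 pairs of a bridge and a distal library share an animal, and bridge 1 nearly matches its distal partner.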

Additional observations from a re-analysis of the deposited data

Results flagged for a closer look

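Among 78 values searched over the 5 intact libraries, 5 had a library far from the others by Dixon's test on log2 (CPM + 1), whose ratio sets the gap to the nearest library against the whole range, where chance gives about 5% of the groups searched. Slc37a2 had a ratio of 0.816, with intact 5 at 0.694 CPM and the others at 0 to 0.102 CPM. Parvg had a ratio of 0.91, with intact 4 at 0.713 CPM and the others at most at 0.0496 CPM. Fcgr4 had a ratio of 0.94, with intact 3 at 1.25 CPM and the others at most at 0.0496 CPM. Runx2 had a ratio of 0.831, with intact 4 at 3.67 CPM and the others at most at 0.298 CPM. In these 4 genes the far library was a higher one, and it still lay below every bridge library. Gapdh had a ratio of 0.889, with intact 1 at 141 CPM and the others between 230 and 244 CPM.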

How the results depend on the processing

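Genes higher and lower in the bridge numbered 195 and 76. DESeq2 gave 380 and 466, a fit of only the groups compared 6 and 3, and the label number as a replicate block 293 and 94, where the median log2 fold change of all genes moved to 0.25. The numbers do not pair these samples, since they came from different animals. Chosen after seeing the data were fits of only bridge day 4 and intact 3, 4 and 5, which gave 127 and 197, without bridge 1 and its distal partner (128 and 19), without intact 0 and 1 and the day 2 distal library (282 and 136), without these 5 libraries (221 and 97) and with a sex term (81 and 28). Leaving out each library in turn gave 93 to 197 higher and 14 to 94 lower. The fewest were 93 higher and 35 lower without bridge 0, 135 and 20 without bridge 1, and 104 and 14 without bridge 2. DESeq2's size factors, robust dispersions, the study's filter, edgeR's own filter, no filter and leaving out intact 0 and 1 kept both numbers within 1.5 times. Bridge against distal stump gave 0 and 0 in every edgeR setting, the animal as a replicate block included, and 8 and 15 with DESeq2. No called gene changed sign. Genes not called did so: with the block Jun (1.03), Des (2.34), Egr2 (0.46) and Dhrs3 (-0.21), and Dhrs3 also with the study's filter (-0.03). Without intact 0 and 1, without those and the day 2 distal library, with only bridge day 4 and intact 3, 4 and 5, and without the 5 libraries, Nrep was at 0.30, 0.33, 0.32 and 0.73, Nrp1 at -0.13, -0.09, -0.12 and -0.07, and Myc at -0.53, -0.49, -0.51 and -0.24. In the first 3 of these S100b was at 0.03, 0.05 and 0.01. Leaving out 1 library gave Des -0.87 to 0.13, Dhrs3 -0.19 to 0.37, Myc -0.18 to 0.40 and S100b -1.57 to 0.42. Of the 75 named genes that were called, 39 passed with the sex term, 40 without the 5 libraries, 42 without bridge 1 and its distal partner and 35 without intact 0 and 1. The causes were not tested. Depth limited the test to 11138 of 24016 genes.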
